A study of Rattus norvegicus with 27 samples.

Results

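The genes described are the subunits of the NMDA and kainate receptors, the ionotropic glutamate receptors other than the AMPA type. Members were all probe sets that the platform annotation assigns to a single gene whose symbol is Grin1, Grin2 or Grin3 with the letter of the subunit, or Grik with its number. Grina, which shares the prefix but encodes no receptor subunit, was left out. This gave 11 genes, with 1 probe set each, of 9769 genes that have a probe set of their own; the table tested held 12913 probe sets. The 11 are 6 NMDA subunits (Grin1, Grin2a, Grin2b, Grin2c, Grin3a and Grin3b) and 5 kainate subunits (Grik1 to Grik5). Grin2d was not analysed here.

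NMDA receptors are cation channels that admit calcium and open when glutamate and a co-agonist, glycine or D-serine, are bound while the membrane is depolarised. Each holds the obligatory subunit encoded by Grin1 together with subunits of the Grin2 genes, which bind glutamate, or of the Grin3 genes, which bind glycine and give channels with less calcium entry. Grin3b is known for its expression in somatic motor neurons of the adult. Kainate receptors are built from Grik1, Grik2 and Grik3, which can form channels alone, and from Grik4 and Grik5, which bind kainate with high affinity and need a partner of the first kind.

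RNA came from motor neurons of the tail in male Wistar rats, found by the retrograde tracer Fluorogold and cut by laser from sacral cord. In the transected groups (labelled Spi-21 and Spi-60, 8 arrays each) the cord had been cut at S2 and a short piece removed. In the sham groups (ShamC-21 with 6 arrays, ShamC-60 with 5) vertebrae were opened over an intact dura. Cords were collected 21 or 60 days after the operation; the labels give tracer injection and buprenorphine for all samples. No genotype is named, and age is given as adult in the series title. A sample pooled 100 to 200 neurons per the sample labels, or 50 to 200 per the design text, and the labels call the samples biological replicates without naming animals. The tests therefore speak of the spread between these pools, some of which may be technical. In such pooled RNA, fewer cells of a type and less RNA per cell cannot be told apart.

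The mean of 8 measured motor neuron genes, of which none passed at 21 days and 3 rose at 60 days, was 9.93 log2 in ShamC-60 replicate 4 and 11.3 to 11.8 in all other arrays. The other ShamC-60 arrays read 11.4 to 11.6 and the Spi-60 arrays 11.4 to 11.7. Whether the 3 rises hold without replicate 4 was not tested. Group means were 6.76 to 8.24 for Slc18a3, the vesicular acetylcholine transporter, and 14.0 to 14.4 for the neurofilament gene Nefh. Those of Isl1 were 6.06 to 6.16, below the array medians of 6.31 to 6.41. At 21 days Calca, Slc5a7, Nefl, Nefm and Nefh read lower after transection (−0.86, −0.43, −0.32, −0.18 and −0.10). Slc18a3, Prph and Isl1 read higher (0.32, 0.19 and 0.09). At 60 days Slc18a3, Prph and Nefh rose, Nefm, Nefl and Slc5a7 read higher without passing, and Calca (−0.39) and Isl1 (−0.01) read lower. Chat, Mnx1 and Chodl were not analysed here. Of 8 astrocyte markers 3 rose at 21 days and 1 at 60 days, with list means of 8.04 to 9.29 in sham and 8.59 to 9.43 in transected arrays at 21 days, and 8.66 to 9.87 against 8.96 to 9.81 at 60 days. Of 9 oligodendrocyte markers 2 rose at 21 days and 1 at 60 days (means 6.90 to 8.17 against 7.58 to 8.22, and 7.44 to 8.75 against 7.84 to 8.63). Of 8 microglial markers 2 rose and then 1 (6.21 to 6.60 against 5.69 to 7.42, and 6.10 to 6.72 against 6.16 to 7.50). None of 9 markers of other neurons rose, and 1 fell on each day (6.15 to 7.28 against 5.89 to 6.50, and 6.16 to 7.52 against 6.07 to 6.55). Of 4 endothelial and blood markers none passed at 21 days and 1 fell at 60 days (6.03 to 6.88 against 6.21 to 6.62, and 6.34 to 7.78 against 6.24 to 6.53). No measured marker was listed at 0 throughout. The 3' minus 5' difference of the beta-actin control probes did not overlap between operations, with 1.97 to 2.65 in sham and 2.86 to 3.60 in transected arrays at 21 days and 1.92 to 2.42 against 2.75 to 3.77 at 60 days. That of GAPDH had means of 2.97 in sham and 2.13 in transected arrays at 21 days and of 2.57 and 3.38 at 60 days. The part of the other cell types and of these control differences in the results below was not tested, apart from the fits that carry them as covariates.

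After transection 3 of the 11 subunit genes rose at 21 days, Grin3b, Grik4 and Grik5. At 60 days 4 rose, the same genes and Grin1. None fell on either day in the limma fit. Across all 12913 probe sets 22.6% passed at 21 days, 11.3% as higher and 11.2% as lower. At 60 days 19.1% passed, 10.2% as higher and 8.92% as lower. At an unadjusted p under 0.05 in either direction there were 5 and 6 members, beside 4700 and 4341 of all probe sets. The median difference of the 11 members was 0.17 log2 at 21 days, beside 0.01 over all probe sets, and 0.12 beside 0.02 at 60 days. With 11 members these shares are a description. The 3 genes that passed on both days compare with 5.05% of all probe sets called higher on both days; no member was called lower on both, beside 5.14% of all.

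**Figure D1:**
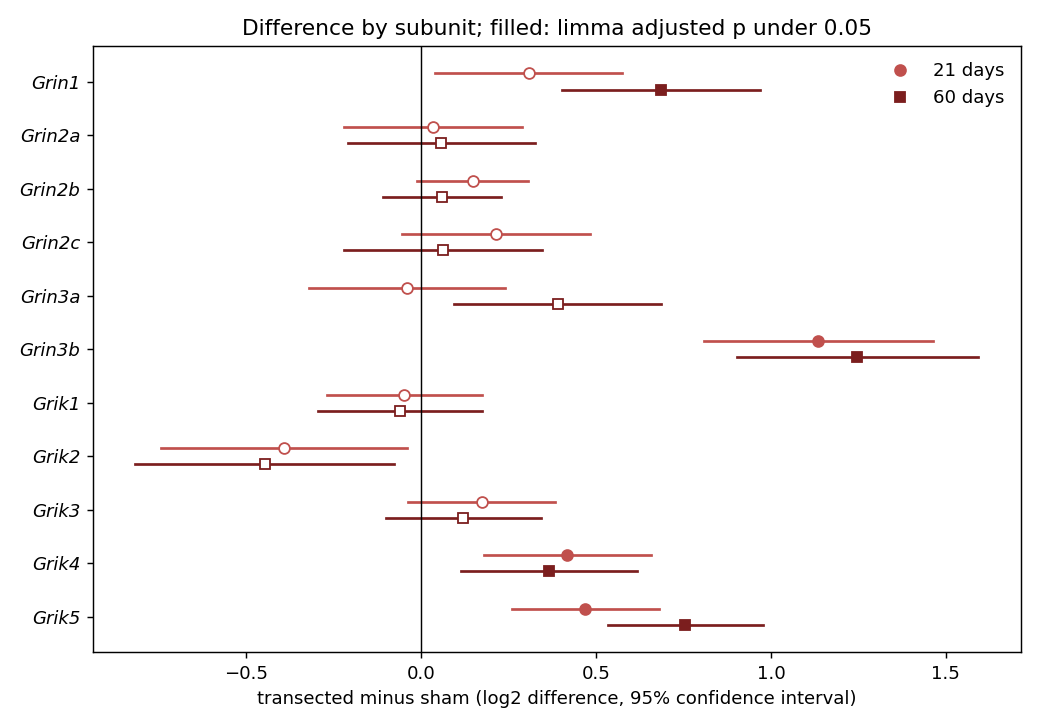
Log2 difference between transected and sham arrays for each subunit gene (x axis) with its 95% confidence interval from the limma fit, at 21 days (circles) and 60 days (squares); filled symbols have an adjusted p under 0.05. Grin3b stands farthest to the right on both days, at 1.13 and 1.25, and Grik2 lies farthest to the left, at −0.39 and −0.45.

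Grin3b (probe set 1387559_at) had the largest difference of the 11 genes on both days. In sham arrays at 21 days its signal ran from 7.61 over a median of 7.89 to 8.16 log2, and in transected arrays from 8.40 over 8.99 to 9.45. Every transected array of the day thus lay above every sham array, which held for 3.07% of all probe sets; 2.22% lay wholly below, and no member did. The difference was 1.13 ± 0.16 (SE), a 2.20-fold rise (limma, adjusted p = 2.9e-05, higher in 8 of 8 arrays).

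At 60 days the sham arrays 1 to 5 read 7.61, 8.00, 7.94, 6.94 and 7.86 for Grin3b, and the transected arrays ran from 8.58 over 8.96 to 9.18. The groups again did not overlap, which held for 4.78% of all probe sets, while 3.42% lay wholly below and no member did. The difference was 1.25 ± 0.17 (2.37-fold, limma, adjusted p = 1.54e-05, higher in 8 of 8). The lowest sham value, 6.94, belongs to replicate 4, the array with low motor neuron markers. Without that array the difference was 1.07 (adjusted p = 6.74e-05), and without sham replicates 1 and 4 of that day it was 0.98 (adjusted p = 0.00108). At 21 days the transected replicates 1 to 4 and 5 to 8, gave 1.05 and 1.22 when tested alone against sham. These replicates differ in the 3' minus 5' difference of the GAPDH control, at 2.57 to 3.47 in the former and 0.98 to 1.46 in the latter. The labels name no such sets. Over all probe sets 3903 passed at 21 days with only replicates 1 to 4 and 1335 with only replicates 5 to 8.

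Grin1 (1368572_a_at), the subunit every NMDA receptor needs, rose at 60 days. Its sham arrays there read 7.64, 8.37, 8.17, 8.13 and 8.28, and the transected arrays ran from 8.46 over 8.87 to 9.08. The lowest transected array was above the highest sham array, which held for 4.78% of all probe sets. The difference of 0.69 ± 0.14 was a 1.61-fold rise (limma, adjusted p = 0.00112, 8 of 8 arrays higher). Without sham replicate 1, the lowest of the day, it was 0.57 (adjusted p = 0.00751), and without replicates 1 and 4 it was 0.53 (adjusted p = 0.0352).

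At 21 days Grin1 ran from 7.97 over 8.23 to 8.44 in sham and from 8.14 over 8.54 to 8.95 in transected arrays. These ranges overlap, although 5 of 8 transected arrays lay above every sham array. The difference of 0.31 ± 0.13 did not pass (limma, adjusted p = 0.0869). It did pass without transected replicate 5 (0.36, adjusted p = 0.0429), after quantile normalization (0.42, adjusted p = 0.0409) and with the mean of glial markers as a covariate (0.39, adjusted p = 0.0384). Transected replicates 1 to 4 (8.34 to 8.95) read mostly higher than replicates 5 to 8 (8.14 to 8.61); with only the former the difference was 0.48 (adjusted p = 0.0162), and with only the latter 0.14 (adjusted p = 0.575).

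Over all probe sets, 4.78% lay wholly above sham and 3.42% wholly below at 60 days. The groups of 3 members, Grin3b, Grin1 and Grik5, did not overlap, all with transected arrays above. The promoter regions of Grin1 and Grik5 are shown as those of these genes that have an entry in the RefSeq promoter table (GRCr8), which held 8 of the 11 members. Each run covers 250 bases before and 50 after the listed start, on the gene's own strand, with GC boxes (GGGCGG, on either strand) in capitals. They lie at chr3:28528705-28529004 and chr1:89794860-89795159, both on the minus strand.
Grin1: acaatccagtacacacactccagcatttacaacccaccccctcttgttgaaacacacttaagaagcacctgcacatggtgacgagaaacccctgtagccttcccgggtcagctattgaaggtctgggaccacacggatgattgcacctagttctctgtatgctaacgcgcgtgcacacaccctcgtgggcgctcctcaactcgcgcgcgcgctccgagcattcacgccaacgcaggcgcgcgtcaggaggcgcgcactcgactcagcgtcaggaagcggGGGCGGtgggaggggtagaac
Grik5: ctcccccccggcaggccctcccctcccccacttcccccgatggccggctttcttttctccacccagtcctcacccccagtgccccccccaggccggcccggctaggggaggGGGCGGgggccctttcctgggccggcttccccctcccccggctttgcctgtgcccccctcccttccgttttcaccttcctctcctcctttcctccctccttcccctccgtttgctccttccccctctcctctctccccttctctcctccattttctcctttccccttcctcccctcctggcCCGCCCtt

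The Grin1 window held 1 GC box and had 59.7% G and C, and the Grik5 window held 2 and had 69.0%, beside a median of 51.7% over all windows of the table. The window of Grik4, which also rose on both days, had 44.0% and held 0 GC boxes. At least 1 such box was found in 33.1% of 33469 windows of the same length. Among the other members Grik3, which did not pass, held 6 and had 82.3% G and C. The windows of Grik1, Grik2, Grin2c and Grin3a, which did not pass either, held 0. They had 58.7%, 50.3%, 60.3% and 58.7% G and C. None of these 8 windows had a cAMP response element (TGACGTCA, found in 1.83% of windows), a TATAAA box (14.2%) or a CACGTG E box (6.42%). These are matches of letters and no measure of binding.

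The glutamate-binding NMDA subunits did not pass on either day. Grin2c (1368306_at) ran from 7.34 over 7.71 to 7.93 in sham and from 7.52 over 7.86 to 8.34 in transected arrays at 21 days, a difference of 0.21 ± 0.13 with overlapping groups (limma, adjusted p = 0.239). Among the transected arrays replicates 1 to 4 (7.90 to 8.34) all lay above replicates 5 to 8 (7.52 to 7.82). With only the former the difference passed (0.43, adjusted p = 0.0238), and with only the latter it was −0.0046 (adjusted p = 0.99). Since these sets did not overlap, the order of these values follows from the split. At 60 days Grin2c read 8.00, 7.76, 7.79, 8.26 and 7.70 in sham arrays and 7.66 over 7.97 to 8.32 in transected ones (0.06 ± 0.14, adjusted p = 0.784).

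Grin2b (1369745_at), a subunit known for high levels in young neurons, ran from 5.95 over 6.11 to 6.23 in sham and from 6.10 over 6.28 to 6.39 in transected arrays at 21 days (0.15 ± 0.08, limma adjusted p = 0.171). At 60 days its difference was 0.06 ± 0.08 (adjusted p = 0.639). Grin2a (1368985_at), the counterpart that prevails in many adult neurons, differed by 0.04 ± 0.12 (adjusted p = 0.867) and 0.06 ± 0.13 (adjusted p = 0.789). Its 95% intervals reached from −0.22 to 0.29 at 21 days and from −0.21 to 0.33 at 60 days, which bounds the difference in signal. Both Grin2a and Grin2b read near or below the median of their arrays (6.31 to 6.41): Grin2a was below it in all 27 arrays, and Grin2b was above it in 3. A fall from such dim signals may not show.

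Grin3a (1370601_a_at), the other glycine-binding Grin3 gene, did not follow Grin3b at 21 days. It ran from 5.71 over 5.89 to 6.11 in sham and from 5.30 over 5.91 to 6.18 in transected arrays (−0.04 ± 0.14, limma adjusted p = 0.858). At 60 days the sham arrays read 5.21, 5.81, 5.65, 5.25 and 5.95 and the transected arrays ran from 5.61 over 5.96 to 6.38. All 8 transected arrays lay above the sham mean and 4 above every sham array, and the difference of 0.39 ± 0.14 was just short of the threshold (adjusted p = 0.0564). The low sham values are those of replicates 1 and 4, which stood apart in different ways. Replicate 4 had the low motor neuron mean of 9.93. Replicate 1 had a motor neuron mean of 11.5. Its astrocyte, oligodendrocyte, and endothelial and blood means were the highest of all arrays (9.87, 8.75 and 7.78). Without both the difference was 0.16 (adjusted p = 0.609). It passed with the replicate number as a block (0.44, adjusted p = 0.0439). With the glial covariate it was 0.46 and also passed (adjusted p = 0.0222). It passed too when 1 array was missing, namely Spi-21 replicate 7, Spi-60 replicate 3 or 8, or ShamC-60 replicate 2 or 5, with 0.39 to 0.48. With Spi-21 replicates 5 to 8 left out, which changes only the pooled variance at 60 days, it also passed.

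**Figure D2:**
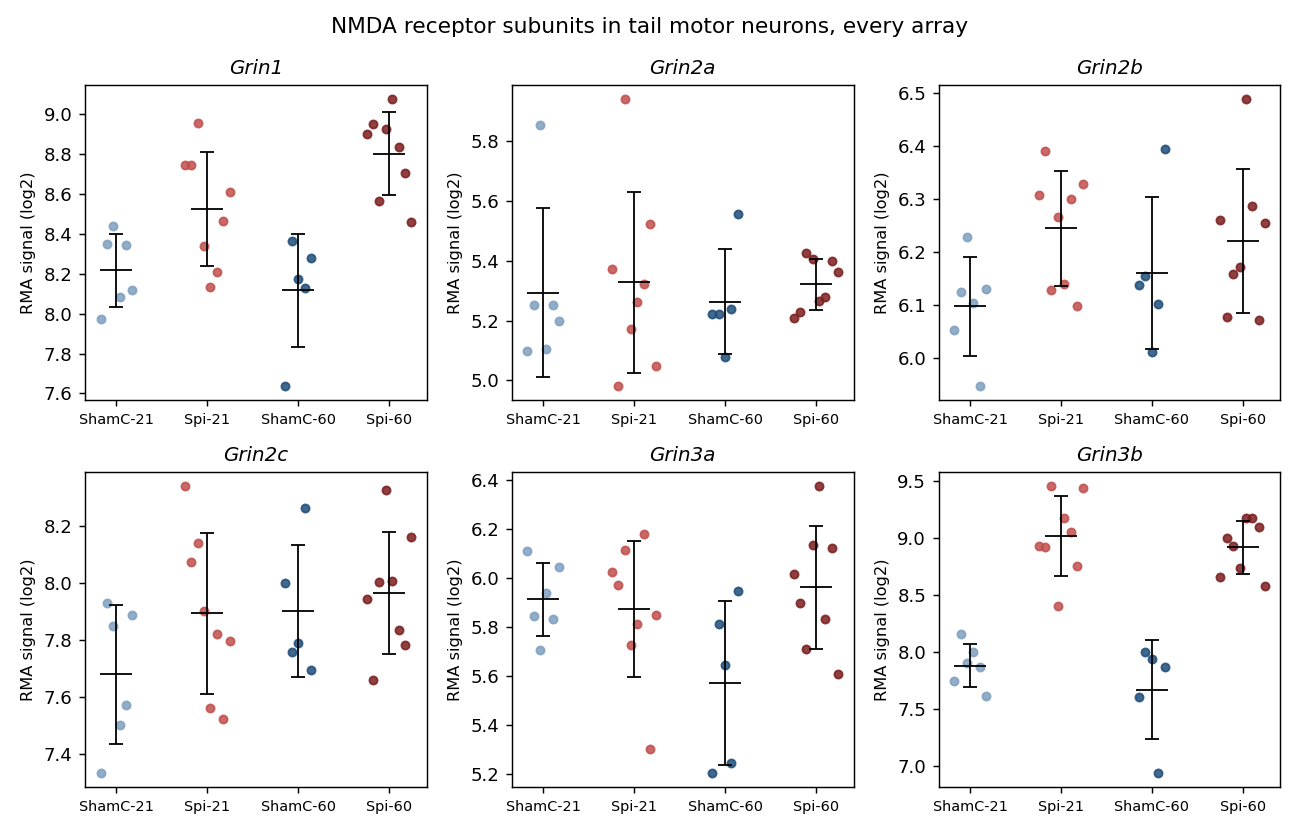
RMA signal (log2, y axis, its own range in each panel) of the 6 NMDA receptor subunit genes in each of the 27 arrays, by group (x axis); dots are arrays, horizontal ticks group means and bars ± 1 SD. Grin3b shows transected arrays above sham arrays on both days and Grin1 at 60 days, and the other panels overlap.

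Of the kainate subunits, Grik5 (1369128_at), a high-affinity partner subunit, rose on both days. At 21 days it ran from 5.26 over 5.54 to 5.77 in sham and from 5.75 over 6.04 to 6.26 in transected arrays, with 6 of 8 above every sham array (0.47 ± 0.10, 1.38-fold, limma adjusted p = 0.0022). At 60 days the sham arrays read 5.33, 5.21, 5.43, 5.39 and 5.37, a narrow band, and the transected arrays ran from 5.84 over 6.10 to 6.35. These groups did not overlap, beside 4.78% of all probe sets wholly above sham. The difference of 0.76 ± 0.11 was a 1.69-fold rise (adjusted p = 2.91e-05, 8 of 8 higher). Leaving out any single array moved it between 0.72 and 0.79. In 0 of 27 arrays did Grik5 exceed the median of its array, so this rise lies within the dim range of signals.

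Grik4 (1369163_at), the other high-affinity subunit, also rose. It ran from 7.17 over 7.39 to 7.64 in sham and from 7.41 over 7.82 to 8.11 in transected arrays at 21 days, where 7 of 8 transected arrays lay above every sham array (0.42 ± 0.12, 1.34-fold, limma adjusted p = 0.012). With transected replicates 1 to 4 alone, which read 7.41 to 7.77, the difference was 0.25 (adjusted p = 0.151), and with replicates 5 to 8, at 7.88 to 8.11, it was 0.58 (adjusted p = 0.00641). This is the opposite order to that of Grin1 and Grin2c in the same arrays. At 60 days the sham arrays read 7.26, 7.41, 7.56, 7.54 and 7.45 and the transected arrays ran from 7.53 over 7.76 to 8.26. The groups overlapped, with 6 of 8 above every sham array. The difference of 0.37 ± 0.12 passed narrowly (adjusted p = 0.036); the call ended when ShamC-60 replicate 1, 2, 4 or 5 or Spi-60 replicate 1, 2 or 5 was missing, with values of 0.30 to 0.39 and an adjusted p of at most 0.111. Without sham replicates 1 and 4 together it was 0.34 (adjusted p = 0.189), and with the replicate block 0.35 (adjusted p = 0.0753).

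Grik2 (1369036_at), a subunit that forms channels alone, differed in the other direction without passing. At 21 days it ran from 5.68 over 5.93 to 6.36 in sham and from 4.76 over 5.69 to 6.05 in transected arrays (−0.39 ± 0.17, limma adjusted p = 0.0961). The sham arrays of 60 days read 5.74, 5.87, 5.83, 6.54 and 6.14, with the highest value in replicate 4, and the transected arrays ran from 5.20 over 5.62 to 5.97 (−0.45 ± 0.18, adjusted p = 0.0804). All 8 transected arrays lay below the sham mean there and 6 below every sham array. The value passed at 21 days with transected replicates 1 to 4 alone (−0.66, adjusted p = 0.0121). At 60 days it passed without Spi-21 replicate 2 (adjusted p = 0.0461) and without Spi-21 replicates 1 to 4 (adjusted p = 0.0295), which change only the pooled variance there. Without sham replicate 4 it was −0.32 (adjusted p = 0.272).

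Grik3 (1370587_at), likewise able to form channels alone, differed by 0.17 ± 0.10 at 21 days, where sham arrays ran from 5.35 over 5.49 to 5.56 and transected ones from 5.12 over 5.65 to 5.98 (limma, adjusted p = 0.225). Transected replicate 1 held the lowest value, 5.12, and without it the difference was 0.25 (adjusted p = 0.0481). At 60 days the difference was 0.12 ± 0.11 (adjusted p = 0.459). Grik1 (1387309_a_at) differed by −0.05 ± 0.11 (adjusted p = 0.783) and −0.06 ± 0.11 (adjusted p = 0.744), with 95% intervals from −0.27 to 0.17 and from −0.30 to 0.17. Grik1 and Grik3 read below the array median in all 27 arrays, and Grik2 in 25.

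**Figure D3:**
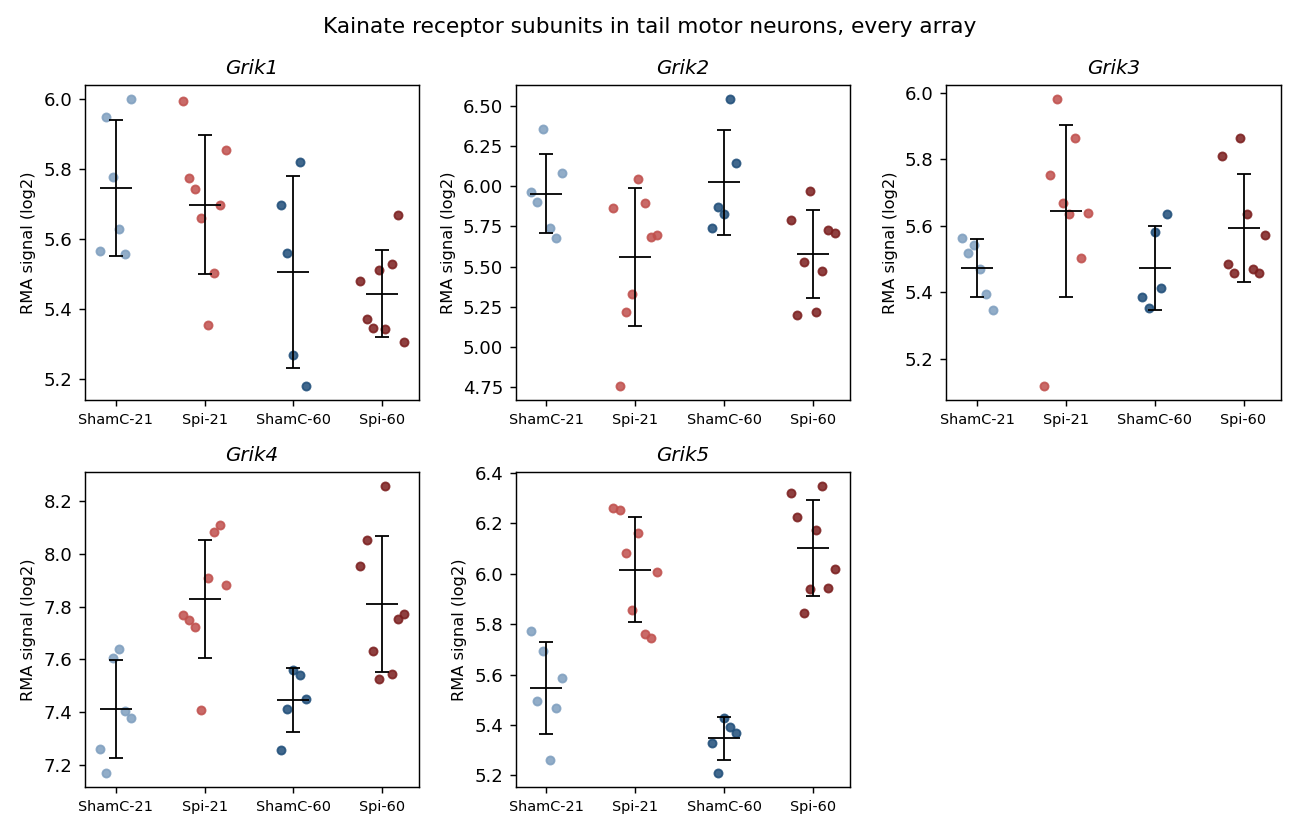
RMA signal (log2, y axis, its own range in each panel) of the 5 kainate receptor subunit genes in each array, by group (x axis), with dots for arrays, ticks for group means and bars for ± 1 SD. Grik5 and Grik4 read higher in transected arrays on both days, with separate ranges for Grik5 at 60 days, while Grik2 shows transected means of 5.56 and 5.58 under sham means of 5.95 and 6.02.

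Differences between the signals of a pair of subunits in the same array were examined for 4 pairs, picked after their values had been seen and carrying no test. The signal of Grin3b minus that of Grin1, set to 0 at the sham mean of each day, ran from −0.20 to 0.25 in sham and from 0.40 to 1.37 in transected arrays at 21 days. At 60 days it ran from −0.74 to 0.41 in sham and from 0.20 to 0.83 in transected arrays, so the ranges were separate on the first day and overlapped on the second. For Grik5 minus Grik2 the sham arrays ran from −0.26 to 0.22 and the transected arrays from 0.27 to 1.90 at 21 days, and from −0.47 to 0.28 against 0.65 to 1.70 at 60 days, without overlap on either day. Grik4 minus Grik2 overlapped on both days, with −0.21 to 0.45 in sham and 0.40 to 1.54 in transected arrays at 21 days and −0.42 to 0.31 against 0.14 to 1.62 at 60 days. Grin3b minus Grin2c ran from −0.48 to 0.29 against 0.30 to 1.44 at 21 days and from −1.09 to 0.47 against 0.65 to 1.57 at 60 days.

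**Figure D4:**
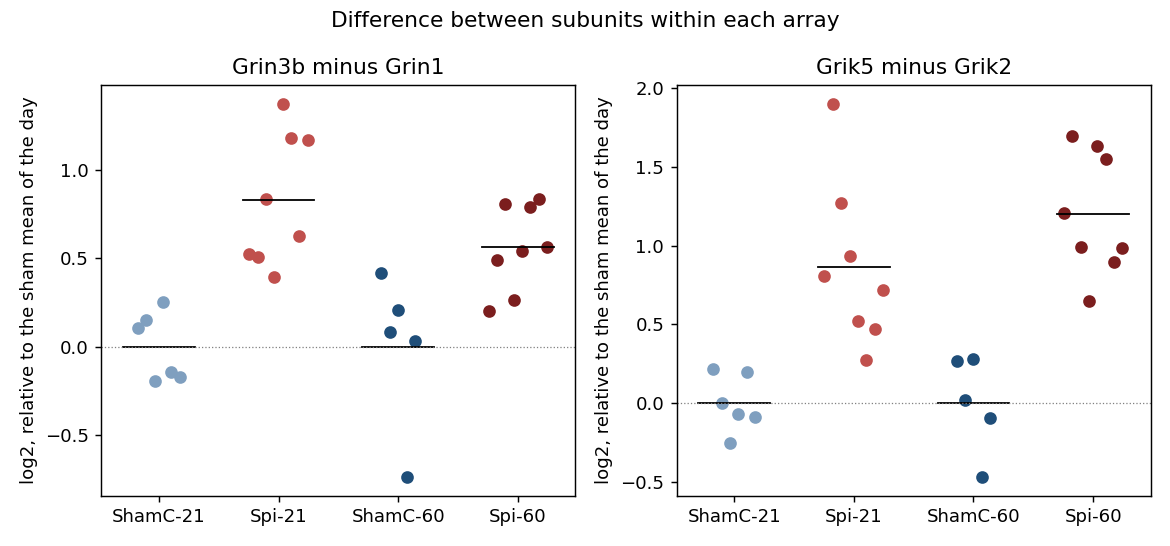
Difference between the log2 signals of a pair of subunits in each array (y axis), set to 0 at the sham mean of the day, by group (x axis), for Grin3b minus Grin1 (left) and Grik5 minus Grik2 (right); lines are group means. Transected means are 0.83 and 0.56 on the left and 0.86 and 1.20 on the right.

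Whether the effect of transection differed between the days was tested as an interaction. None of the 11 members passed, and neither did any of the 12913 probe sets (0% in limma); at an unadjusted p under 0.05 there were 1 member and 905 probe sets. The member was Grin3a, whose difference was 0.43 ± 0.20 larger at 60 days (adjusted p = 0.696). For Grin1 the difference was 0.38 ± 0.19 larger (adjusted p = 0.724), with a 95% interval from −0.01 to 0.77, and for Grik5 0.29 ± 0.15 larger (adjusted p = 0.741), from −0.02 to 0.59. The pass of Grin1 at 60 days and not at 21 days is therefore not shown to be a difference between the days. The remaining 8 members lay between −0.15 and 0.11.

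Within an operation, 60 and 21 days did not differ past the threshold for any member. Among transected arrays 0.0852% of all probe sets passed (0.0465% higher, 0.0387% lower at 60 days). At an unadjusted p under 0.05 there were 2 members and 1706 of all probe sets. The members were Grin1 (0.28 ± 0.12, limma adjusted p = 0.314) and Grik1 (−0.25 ± 0.10, adjusted p = 0.263, below the 21-day mean in 8 of 8 arrays). Among sham arrays 0% of all probe sets passed, with 513 at an unadjusted p under 0.05, and the member among these was Grin3a (−0.34 ± 0.15, adjusted p = 0.999).

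The beta-actin control difference, which separates the operations completely, leaves little to estimate when it is a covariate. With it the values of Grin3b stayed at 1.02 and 1.12 while the standard errors rose to 0.27 and 0.30, and the calls were kept at 21 days (limma, adjusted p = 0.0376) and lost at 60 days (adjusted p = 0.0554). Grik4 passed at 21 days (0.66, adjusted p = 0.0479) and not at 60 days (0.65, adjusted p = 0.104). Grik5 passed on neither day (0.42 and 0.70, adjusted p = 0.16 and 0.0607), nor did Grin1 at 60 days (0.74, adjusted p = 0.111). Over all probe sets 463 passed at 21 days and 162 at 60 days in this fit.

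Other genes of the glutamate synapse were counted from lists, with the probe set of highest mean for each gene. By that probe set, 8 of 24 measured scaffold and trafficking genes rose and 1 fell at 21 days, and 4 rose and none fell at 60 days, where 22.6% and 19.1% of all probe sets passed. Further probe sets, 8 for 7 of these genes, did not always go the same way: 2 rose and 1 fell at 21 days, and 1 rose and 1 fell at 60 days. Shank2, a postsynaptic scaffold gene counted as higher at 21 days (0.29, limma adjusted p = 0.0468), had another probe set that fell by 0.77 and by 0.64 (adjusted p = 0.00336 and 0.0174), so its direction is uncertain. Dlg4, which encodes PSD-95 and is not counted (−0.12 and −0.22), had further probe sets at 0.40 and 0.18 at 21 days (adjusted p = 0.0149 and 0.0337) and at 0.30 and 0.37 at 60 days (adjusted p = 0.0785 and 0.00023). Dlgap1, a postsynaptic scaffold protein that binds PSD-95, rose by 0.67 ± 0.10 and 0.32 ± 0.10 (limma, adjusted p = 5.03e-05 and 0.0306). Pick1, which binds glutamate receptor tails, rose by 0.64 ± 0.12 and 0.60 ± 0.12 (adjusted p = 0.000475 and 0.00125). Apba1, an adaptor of the complex that carries NMDA receptors along dendrites, rose at 60 days (0.32 ± 0.09, adjusted p = 0.013). At 21 days it did not pass (0.13, adjusted p = 0.257). Group means of Dlgap1 (4.66 to 5.38) and Apba1 (5.55 to 5.87) lay below the array medians of 6.31 to 6.41, in the dim range of signals. Dlg2, the scaffold PSD-93, fell at 21 days by 0.78 ± 0.19 (adjusted p = 0.00437). At 60 days it read −0.37 and did not pass (adjusted p = 0.183). Without sham replicates 1 and 4 of 60 days 1 gene of this list rose at that time, Pick1 (0.46, adjusted p = 0.0491), and with transected replicates 1 to 4 of 21 days left out 2 rose at 21 days. When Spi-21 replicate 1 or ShamC-21 replicate 4 or 6 was missing 4 rose and 1 fell at 21 days. The call of Dlgap1 at 60 days ended when Spi-60 replicate 1, 2 or 3 or ShamC-60 replicate 1, 3 or 5 was missing (adjusted p of at most 0.0958), and that of Apba1 without sham replicates 1 and 4 together (0.31, adjusted p = 0.086).

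Of 17 measured calcium and kinase signalling genes 4 rose and 3 fell at 21 days, and 3 rose and 2 fell at 60 days. Over all probe sets 22.6% and 19.1% passed on these days. Cdk5, a kinase that phosphorylates an NMDA receptor subunit, rose by 0.82 ± 0.16 and 1.20 ± 0.17 (limma, adjusted p = 0.000796 and 1.94e-05), and the calcium-responsive exchange factor Rasgrf2 by 0.75 ± 0.10 and 0.41 ± 0.10 (adjusted p = 1.04e-05 and 0.00652). Group means of Rasgrf2 were 5.51 to 6.27, below the array medians of 6.31 to 6.41. Camk2g, a CaM kinase II subunit, rose by 0.64 ± 0.20 and 0.95 ± 0.21 (adjusted p = 0.0228 and 0.00266), the former not without transected replicate 2 (0.53, adjusted p = 0.0504). Prkcb, a protein kinase C, fell by 1.37 ± 0.26 and 1.55 ± 0.28 (adjusted p = 0.000797 and 0.000379); a further probe set of Prkcb gave −0.42 (adjusted p = 0.0291) and −0.40 (adjusted p = 0.0504). Csnk2a1, a casein kinase 2 subunit counted as lower at 21 days (−0.65, adjusted p = 0.0389), had another probe set at 0.11 (adjusted p = 0.439). With transected replicates 1 to 4 of 21 days left out 2 rose and 2 fell at 21 days, and without sham replicates 1 and 4 of 60 days 2 rose and 1 fell at 60 days; Rasgrf2 was then at adjusted p = 0.0503.

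Of 14 measured genes for supply and uptake of glutamate and co-agonist, 3 rose and 1 fell at 21 days and 3 rose at 60 days. The shares of all probe sets were 22.6% and 19.1%, which also stand beside the metabotropic receptor genes below. The glycine transporter Slc6a9 rose by 0.60 ± 0.19 and 0.97 ± 0.20 (limma, adjusted p = 0.022 and 0.00119), the former not without sham replicate 1 (0.55, adjusted p = 0.0579). Of the further probe sets of Slc6a9 1 passed on each day and the other did not. Slc1a3, an astrocytic glutamate transporter that is not counted (0.03 at 21 days), had another probe set that rose at 21 days (0.34, adjusted p = 0.0248). Shmt2, a mitochondrial enzyme that interconverts serine and glycine, rose at 60 days (0.87 ± 0.15, adjusted p = 0.000215). At 21 days it read 0.36 and did not pass (adjusted p = 0.0641). It did pass then without Spi-21 replicate 8 or ShamC-60 replicate 4 (adjusted p = 0.0327 and 0.0414). Slc1a2, the astrocytic glutamate transporter and also on the astrocyte list, rose at 21 days (0.39 ± 0.09, adjusted p = 0.00336), as did the vesicular transporter Slc17a7 (0.32 ± 0.10, adjusted p = 0.0223, not without sham replicate 1, 5 or 6). At 60 days these genes read 0.27 and 0.16 and did not pass (adjusted p = 0.0505 and 0.294). Slc1a2 did pass then in 6 of the fits without 1 array. Their group means (5.39 to 5.83 and 5.36 to 5.68) lay below the array medians of 6.31 to 6.41. With transected replicates 1 to 4 of 21 days left out 1 rose and none fell at 21 days; without ShamC-21 replicate 1 it was likewise 1, and without ShamC-21 replicate 6 it was 2, with none lower. Of 5 metabotropic receptor genes none passed at 21 days and 1 rose at 60 days, Grm4 (0.75 ± 0.25, adjusted p = 0.0362), which passed no more without ShamC-60 replicate 4 (0.44, adjusted p = 0.198) or Spi-60 replicate 2, 3, 4, 5 or 7 (0.71 to 0.74). Of the kainate receptor partners Neto1 and Neto2 none passed; Neto1 differed by −0.74 ± 0.29 (adjusted p = 0.0657) and −0.79 ± 0.31 (adjusted p = 0.0682), and at 60 days by −0.35 (adjusted p = 0.357) without sham replicate 4. It passed as lower at 21 days when Spi-21 replicate 3, ShamC-21 replicate 3 or ShamC-60 replicate 4 was missing (−0.88 to −0.74), and at 60 days when ShamC-60 replicate 2 or 5 was (−0.99 and −0.94).

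The genes most alike in pattern to 3 of the subunits were sought by the root mean square difference over the 27 arrays, each probe set centred on its own mean. For Grin3b, whose SD over the arrays was 0.66 log2, these were Nicol1 (0.23), Gtf2h4 (0.25) and Chchd10 (0.26). For Grin1 (SD 0.36) they were Nckap5l (0.17), Pitpnm1 (0.17) and Lrrc4b (0.18), and for Grik5 (SD 0.35) Gtpbp6 (0.17), Hspb7 (0.18) and Abca2 (0.18). Since likeness was measured over the same arrays, the direction of these genes between the operations follows from how they were chosen and is not a result.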

How the data were processed

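Log2 probe set signals were deposited for 27 arrays (Affymetrix rat, total RNA amplified in 2 rounds per the labels' protocols), made by the authors with RMA per the submitters' processing notes, which correct background, normalize arrays to one another and summarise probes; the version is not given in the sources used here. Values lay between 0 and 14.6 with array medians of 6.31 to 6.41. No pair of arrays was identical (correlations 0.825 to 0.989). Arrays have no count depth, so their number limits the precision.

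Probe sets were named from the platform annotation (11880 with 1 symbol, 320 with several, 713 with none listed), and all 11 members matched the RefSeq gene table by gene identifier. No genome was used. In R 4.3.3, limma 3.58.1 (lmFit, eBayes) was fitted to 12913 probe sets, without 6 beta-actin and GAPDH controls and without a filter on signal, over 4 groups with no covariate. Each p was two-sided, was corrected over the whole table by the Benjamini-Hochberg method and was set against 0.05; ± after a difference is the standard error. The fit was tested on simulated data. Named genes beside the members were up to 4 per list with the smallest p on either day, and the 3 nearest in pattern to Grin1, Grin3b and Grik5; Neto1 and Neto2 were all that was measured of their list. Members and lists were chosen with earlier results of these data known. Alternatives were the replicate block, each array left out, sets of arrays left out, only the compared groups, array weights, other scalings, a signal filter, 2 covariates and another variance model. Plots were made with matplotlib 3.10.9 in Python 3.11.15.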

Additional observations from a re-analysis of the deposited data

Results flagged for a closer look

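Grin2a in ShamC-21 replicate 3 read 5.86 log2, against 5.25 in the nearest of the other 5 sham arrays of the day, a gap of 0.80 of the range of the group. Of 44 groups of values examined in this way 1 stood out, and chance flags about 5%. Transected replicate 3 of 21 days also held the highest Grin2a value of its group, 5.94.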

How the results depend on the processing

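Of the 11 members, 3 passed at 21 days and 4 at 60 days. Without 1 array at a time 3 to 4 members passed at 21 days and 3 to 5 at 60 days, and 0 in the interaction and in both comparisons of days. Over all probe sets 2040 to 3177 passed in these fits at 21 days and 1538 to 2760 at 60 days. With transected replicates 5 to 8 of 21 days left out 5 members passed at 21 days (4 higher, 1 lower). Over all probe sets 3903 passed in that fit, 1906 as higher and 1997 as lower. With the beta-actin covariate 0 members passed at 60 days, where it is nearly tied to the operation, beside 162 of all probe sets. Same-numbered transected and sham arrays of a day were mostly not alike (deviations correlated over 0.1 in 4 of 11 pairs, from −0.31 to 0.33, and 2 of 11 sham arrays were most alike to their own number). With the replicate number as a block 3226 probe sets passed at 21 days and 3073 at 60 days, beside 2917 and 2463 without it. What the numbers share over all 4 groups was not tested. With the replicate block 3 members passed at 21 days and 4 at 60 days, Grin3a (0.44) in place of Grik4 (0.35).

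Values near 0 changed sign in some fits. With transected replicates 5 to 8 of 21 days left out Grik1 was 0.047 and Grin3a 0.046 at 21 days, and with replicates 1 to 4 left out Grin2a was −0.0032 and Grin2c −0.0046. Grin3a was 0.024 at 21 days with the block and 0.049 with the glial covariate. At 60 days Grik1 was 0.11 without sham replicates 1 and 4 and 0.029 with array weights, Grin2c −0.039 with the glial and −0.091 with the beta-actin covariate, and Grin2b −0.021 with the latter. Grin1 among sham arrays (60 minus 21 days) was 0.057 without sham replicates 1 and 4. Without 1 array at a time Grik1 ran from −0.090 to 0.0025 and from −0.14 to 0.018 at 21 and 60 days, Grin2a from −0.052 to 0.15 and Grin3a from −0.085 to 0.040 at 21 days, and Grin1 among sham arrays from −0.16 to 0.020.

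Over all probe sets 2917 passed at 21 days. With the signal filter 1811 passed, but out of only the probe sets above the median signal, so these counts do not compare. The 2917 became 3903 with transected replicates 5 to 8 left out, 1335 with transected replicates 1 to 4 left out and 463 with the beta-actin covariate. The 2463 at 60 days became 1635 without sham replicate 1, 1538 without replicate 4, 797 without both and 162 with that covariate. For the interaction 161 passed with transected replicates 1 to 4 of 21 days left out and 3 with array weights, instead of 0. Among transected arrays the 11 probe sets ran from 1 to 83 without 1 array and reached 630 with those replicates left out; among sham arrays 2 passed with array weights. Every member has 1 probe set, so no other probe set could stand in. Fits on only the groups compared changed no member's call.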
